A study of Mus musculus with 16 samples.

Results

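The genes described here are 9 genes whose proteins build or line the myelin sheath: Mbp, Mobp, Mal, Mag, Mog, Opalin, Cnp, Ermn and Cldn11. They were chosen by name from the 30389 genes of the count tables. All 9 were read in every library, as CPM of the unique molecular identifiers (UMIs) summed over the cells of a class, that is, as the gene's part of all UMIs of the class on the usual CPM scale. The libraries came from the cortex of 17-month-old mice, 1 library per mouse, and were made by Drop-seq, in which a droplet pairs a cell with a barcoded bead. THY-Tau22 mice carried a transgene for human 4-repeat tau with mutations linked to frontotemporal dementia, driven by the neuronal Thy1.2 promoter, and were heterozygous for it. Wild-type (WT) littermates without the transgene, from the same crosses to C57Bl6/J mice, served as controls. Since the promoter is neuronal, oligodendrocytes were not the cells in which the transgene was designed to be expressed. The question was whether transcripts of myelin proteins differed with the transgene in males and in females, and in which cell classes they were found at all.

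The labels gave 16 libraries, and the tables held 48000 barcodes and 25145717 UMIs, of which 28530 barcodes had the 200 to 7000 detected genes that a kept cell needed. One pair of tables, labelled WT male replicate 3 and, under the other genotype, THY-Tau22 male replicate 4, had 2952 of 3000 barcodes in common, where any other pair of tables had between 3 and 12. Both were left out of every value below, unless it is said otherwise. The remaining 14 libraries were those of 3 WT and 3 THY-Tau22 males and of 3 WT and 5 THY-Tau22 females. Values of single libraries are given in the order of the replicate numbers, which for WT males are 1, 2 and 4. They held 24578 kept cells, between 1121 and 2526 in a library, and the median cell of a library had 429 to 736.5 UMIs. The same animal number stood in the titles of 2 libraries of different groups, WT male replicate 1 and the first THY-Tau22 female. WT female replicate 3 stood apart from the other WT females in most of the values below, and results that change without it are given both ways.

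Myelin is a membrane that oligodendrocytes wrap around axons in many layers, which insulates the axon and speeds conduction. Most of the sheath is compacted, with the cytoplasm squeezed out between the layers, while channels of cytoplasm remain at its edges and inner turn. Mbp encodes myelin basic protein, which holds the cytoplasmic faces of the compact layers together, and its mRNA is known to be carried into the oligodendrocyte processes and translated there. Mobp encodes another basic protein of compact myelin, and Mal a small membrane protein that sorts proteins and lipids to the sheath. Mag is an adhesion protein on the side facing the axon, Mog an immunoglobulin-like protein on the outermost surface, and Opalin a membrane glycoprotein of oligodendrocytes. Cnp encodes an enzyme of the cytoplasmic channels, Ermn a cytoskeletal protein of late-stage oligodendrocytes, and Cldn11 the claudin that forms the tight junctions between the layers of central myelin.

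The stretches of DNA before the start sites are shown for 5 of the 9 genes, since the values below differ between them. Across the cell classes the levels of Mobp and Opalin were more closely correlated with the mean of the other members than those of Cnp, Mal and Cldn11, although the share of Mobp among the 9 genes was also higher in some classes. Promoters of 8 members were found in the RefSeq table of the GRCm38.p6 build, and each sequence is taken from the 250 bases before the first RefSeq start site, on the strand of the gene and from 5′ to 3′. Capitals mark exact matches to ACAAAG, the core letters bound by SOX factors, or to CTGGCAC, letters of the MYRF motif, on either strand. These motifs do not overlap in the windows. The last 35 bases before the RefSeq start of Mobp and of Cnp lie inside the gene as GENCODE places it and are not shown. The windows are chr9:120149492-120149706 on the plus strand for Mobp, chr19:41077114-41077363 on the minus strand for Opalin, chr11:100574689-100574903 on the plus strand for Cnp, chr2:127656696-127656945 on the minus strand for Mal and chr3:31149670-31149919 on the plus strand for Cldn11.
Mobp: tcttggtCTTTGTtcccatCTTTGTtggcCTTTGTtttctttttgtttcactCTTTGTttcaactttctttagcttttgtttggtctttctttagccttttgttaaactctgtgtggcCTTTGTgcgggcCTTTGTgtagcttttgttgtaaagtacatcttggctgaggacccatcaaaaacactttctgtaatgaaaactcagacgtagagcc
Opalin: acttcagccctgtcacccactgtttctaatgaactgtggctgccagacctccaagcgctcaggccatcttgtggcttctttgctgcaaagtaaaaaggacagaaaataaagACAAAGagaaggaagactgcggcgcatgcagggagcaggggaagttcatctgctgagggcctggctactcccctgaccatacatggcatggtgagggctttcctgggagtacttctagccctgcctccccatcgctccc
Cnp: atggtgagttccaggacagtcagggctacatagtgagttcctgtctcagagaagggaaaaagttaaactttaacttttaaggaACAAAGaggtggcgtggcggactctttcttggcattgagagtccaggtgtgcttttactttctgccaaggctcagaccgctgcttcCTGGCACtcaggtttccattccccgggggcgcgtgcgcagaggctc
Mal: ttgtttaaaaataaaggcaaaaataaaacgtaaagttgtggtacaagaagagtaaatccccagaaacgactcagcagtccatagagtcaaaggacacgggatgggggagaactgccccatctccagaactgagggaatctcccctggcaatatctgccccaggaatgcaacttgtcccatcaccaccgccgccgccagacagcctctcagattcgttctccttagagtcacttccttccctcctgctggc
Cldn11: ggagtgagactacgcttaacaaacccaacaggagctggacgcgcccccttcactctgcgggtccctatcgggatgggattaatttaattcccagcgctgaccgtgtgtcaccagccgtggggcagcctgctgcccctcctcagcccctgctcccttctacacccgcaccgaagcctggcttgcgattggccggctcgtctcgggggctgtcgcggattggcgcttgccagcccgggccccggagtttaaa
The SOX letters were present in 16.5% of the 32851 promoters of the table and the MYRF letters in 4.19%. The Mobp window held 6 SOX matches, the farthest 243 and the nearest 120 bases before the start. Opalin had 1 SOX match, 139 bases before the start, and Cnp had 1 SOX match at 167 bases and 1 MYRF match at 81 bases. The first start site of Mag had 1 of each, at 126 and 68 bases, and no match was present in the windows of Mal, Cldn11, Mog or Ermn. Of these, Mog and Ermn were the members most closely correlated with the mean of the others (0.984 and 0.983). A match of letters is a description of the window and not evidence of binding.

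In the GENCODE annotation of GRCm38, Mobp lies at chr9:120149707-120181484 on the plus strand and Mal at chr2:127633226-127656695 on the minus strand. Mag lies at chr7:30899176-30914873, Mog at chr17:37010743-37023398, Opalin at chr19:41061710-41077113 and Ermn at chr2:58045113-58052864, each on the minus strand. Cldn11 lies at chr3:31149920-31164324 and Cnp at chr11:100574904-100591729, both on the plus strand. Cnp overlaps Dnajc7 on the opposite strand, for which the tables listed 3358 UMIs, and whether the counting used the strand was not given in the sources used here, so the Cnp values carry that uncertainty.

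Transcripts of all 9 genes were concentrated in oligodendrocyte-like cells, the class named from 22 markers that include none of the 9 genes, which were also kept out of the clustering. This class held 4504 cells, 18.33% of the kept cells and 18.0% of their UMIs, but 85.12% of the UMIs of the 9 genes. Its 2 larger clusters each had 20 of the 22 markers more than 2-fold above the other cells, and the smallest had 16. The name was given from this same list, so these counts are no independent check of it. Summed over the 9 genes, the level in oligodendrocyte-like cells was 22570 CPM when the libraries were pooled. Over the libraries it ran from 17940 CPM in WT female replicate 3, through a median of 22890 CPM, to 28380 CPM in THY-Tau22 female replicate 4. With a level this high, 99.93% of these cells had at least 1 UMI of the 9 genes, and 99.64% still did when each cell was thinned to 300 UMIs.

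**Figure D1:**
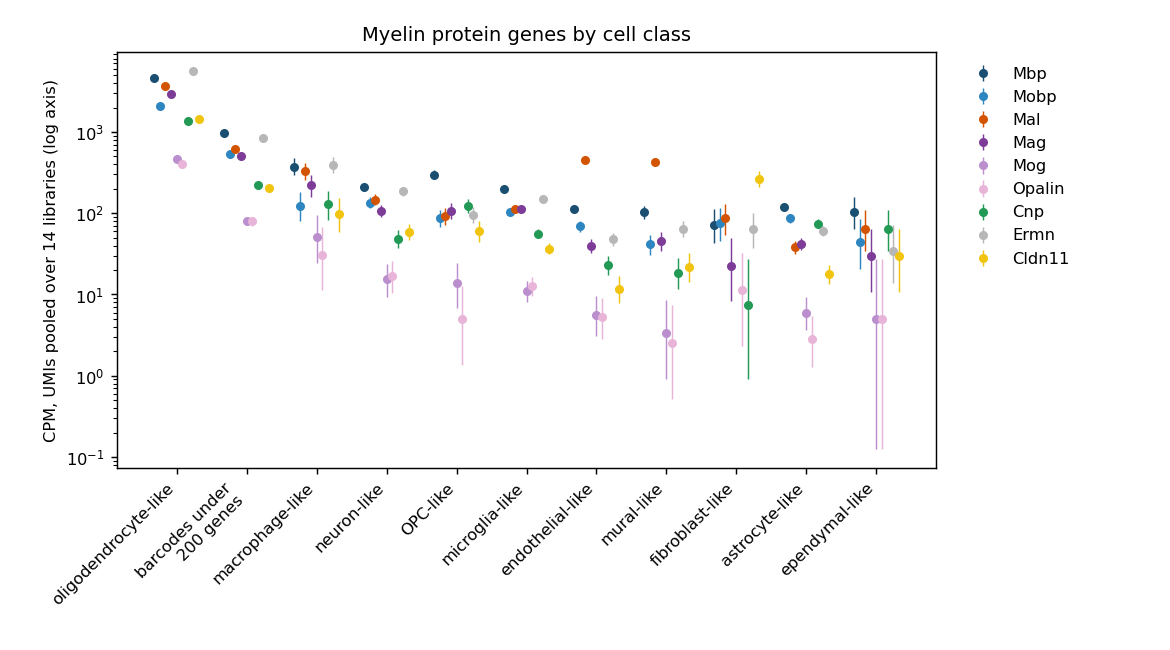
Level of each of the 9 genes in 10 named cell classes and in barcodes with under 200 genes, in CPM of UMIs pooled over the 14 libraries on a log axis, with bars for the 95% exact Poisson interval (counting error only). Each gene is highest in oligodendrocyte-like cells, Mal (449.4 and 423.1 CPM) stands out in endothelial-like and mural-like cells and Cldn11 (266.0 CPM) in fibroblast-like cells, where Mog, at 0 UMIs, has no point.

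Among the genes of compact myelin, the level of Mbp in oligodendrocyte-like cells ran from 2805 to 7139 CPM over the 14 libraries, with a median of 4352 CPM, a 2.545-fold range. Mobp ran from 1641 to 2961 CPM around a median of 1963 CPM, and Mal from 2603 to 4888 CPM around 3640 CPM. The highest Mbp and Mobp levels were both in WT female replicate 2 and the lowest both in WT female replicate 3, whereas Mal was lowest in WT female replicate 1 and highest in THY-Tau22 female replicate 1. Among the surface proteins, Mag ran from 1811 to 5482 CPM with a median of 2822 CPM. Mog ran from 315.9 to 727.6 CPM with a median of 434.9 CPM, and Opalin from 247.1 to 790.1 CPM with a median of 384.4 CPM. Mag was highest in THY-Tau22 female replicate 4, and Mog and Opalin both in WT female replicate 2. Of the proteins outside compact myelin, Cnp ran from 822.9 to 2768 CPM (median 1260 CPM) and Ermn from 4339 to 9270 CPM (median 5612 CPM). Cldn11, the tight junction gene, ran from 816.7 to 2501 CPM with a median of 1327 CPM. Levels are compared here within a gene and not between genes, since CPM is not a value per length of transcript.

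Within the oligodendrocyte-like class, 3 clusters differed in how much of these transcripts they held. The largest, of 3004 cells, had 22270 CPM of the 9 genes, and a cluster of 1341 cells, led by Gstp1, a glutathione transferase, had 24390 CPM. The smallest, of 159 cells, had 13050 CPM. In the 3 clusters, in the same order, Mbp made up 19.81%, 21.27% and 19.43% of the UMIs of the 9 genes, and Ermn 25.91%, 22.6% and 24.21%. Cnp made up 5.671%, 6.907% and 5.636%, Opalin 1.604%, 2.14% and 1.932%, and Mal 16.48%, 16.45% and 19.06%. These cluster values are pooled over libraries and are given as a description.

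Outside the oligodendrocytes the 9 genes were found at a low level in every class. The pooled sum was 925.3 CPM in neuron-like cells, 883.3 CPM in oligodendrocyte precursor (OPC)-like cells and 794.2 CPM in microglia-like cells. It was 763.9 CPM in endothelial-like, 723.9 CPM in mural-like and 449.1 CPM in astrocyte-like cells. The ranges over libraries overlapped between all neighbours in this order: 247.3 to 4147 CPM in neuron-like, 269.3 to 1525 CPM in OPC-like, 380.8 to 1363 CPM in microglia-like, 496.4 to 1209 CPM in endothelial-like, 211.6 to 1071 CPM in mural-like and 190.0 to 1113 CPM in astrocyte-like cells. The highest neuron-like value was that of WT female replicate 2. Compared within each library, the sum was higher in mural-like than in astrocyte-like cells in 12 of 14 libraries and in endothelial-like than in mural-like cells in 10 of 14. It was higher in neuron-like than in OPC-like cells in 9, in OPC-like than in microglia-like cells in 8 and in microglia-like than in endothelial-like cells in 6 of 14, and these counts were not tested. Barcodes with fewer than 200 detected genes, 17422 in the 14 libraries, held 4074 CPM of the 9 genes. These barcodes can hold damaged cells, cell fragments or free RNA, and their level lay above that of each of the 6 classes just named.

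Shares of cells with a UMI were also highest in oligodendrocyte-like cells. In oligodendrocyte-like cells, with a median of 577 UMIs, 87.99% had a UMI of Mbp, 90.21% of Ermn, 83.24% of Mal, 25.33% of Mog and 21.45% of Opalin. In microglia-like cells, which are not known to make myelin and had a median of 508 UMIs, the shares were 7.967% for Mbp, 4.3% for Ermn, 3.766% for Mal, 0.5901% for Mog and 0.7166% for Opalin. The microglia-like share was taken as a reference for the background of the measurement, a choice that was not tested. Thinned to 300 UMIs a cell, the shares for Mbp were 70.76% (95% Wilson interval 69.41 to 72.07) and 4.673% (4.195 to 5.202), after 38 oligodendrocyte-like and 355 microglia-like cells with fewer UMIs had been left out. For Mal, 27.6% of mural-like cells and 22.33% of endothelial-like cells, the latter with a median of 535.5 UMIs, had a UMI. Of the endothelial-like cells 11.95% (10.89 to 13.1) did at 300 UMIs, against 2.159% (1.839 to 2.534) of microglia-like and 0.8994% (0.6661 to 1.213) of astrocyte-like cells. Intervals given for counts cover counting error only.

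RNA from a single source keeps its genes in one proportion in every class of a library, so it was asked whether the 9 genes stood in the same proportions outside the oligodendrocytes as within them. The share of each gene in the UMIs of the 9 genes was compared, within each library, with its share in oligodendrocyte-like cells. An exact two-sided sign-flip permutation test over libraries was used for the 47 gene and class pairs with enough UMIs, with Benjamini-Hochberg adjustment over those 47 pairs. Of these, 12 were higher and 18 lower than in oligodendrocyte-like cells. Since shares add up to a whole, a higher share of one gene lowers the others.

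**Figure D2:**
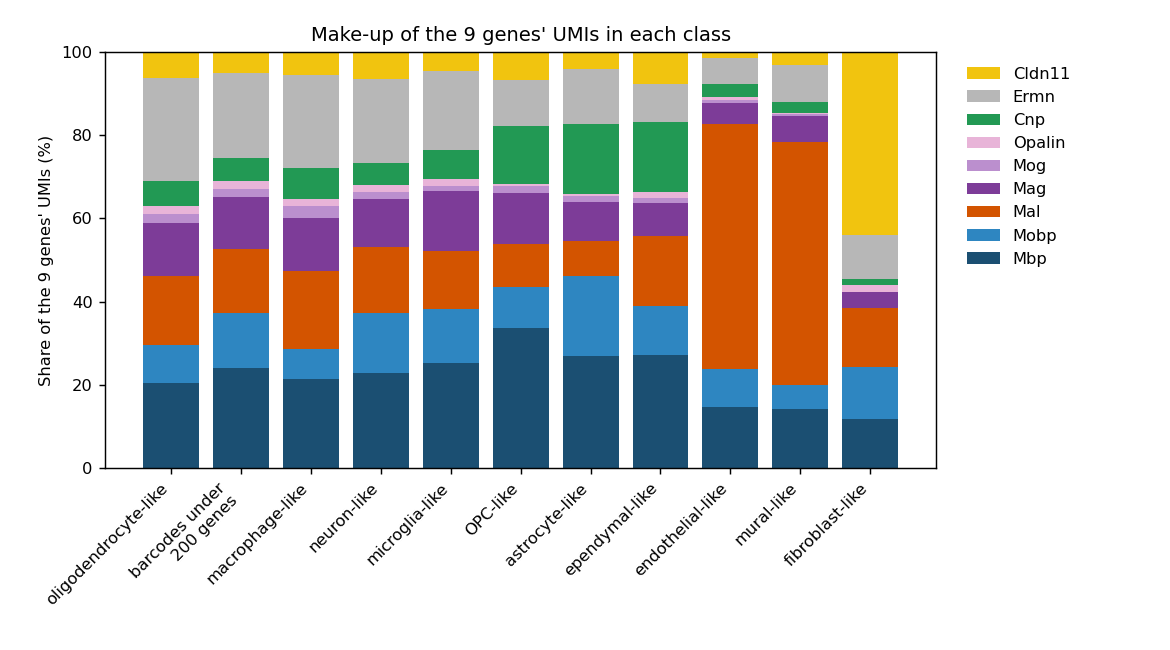
Stacked bars of the share of each gene, in percent, in the UMIs of the 9 genes, pooled over the 14 libraries, for 10 named cell classes and for barcodes with under 200 genes. Mal takes 58.83% in endothelial-like and 58.44% in mural-like cells against 16.54% in oligodendrocyte-like cells, Cnp 16.64% in astrocyte-like and 14.02% in OPC-like cells against 6.12%, and Cldn11 44.1% in fibroblast-like cells against 6.352%.

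Mal departed most from the oligodendrocyte mixture in the cells of blood vessels. In endothelial-like cells, which line the vessels, 1113 of the 1892 UMIs of the 9 genes were of Mal, 58.83%, against 16.54% in oligodendrocyte-like cells. The mean log2 ratio of the shares was 1.81 ± 0.32 (SD, n = 14), higher in 14 of 14 libraries (exact permutation p = 0.0001221, adjusted p = 0.0006375). In mural-like cells, the contractile cells and pericytes around the vessels, Mal made up 502 of 859 UMIs, 58.44%, with a mean log2 ratio of 1.68 ± 0.44 (SD, n = 13) and a higher share in 13 of 13 libraries (exact permutation, adjusted p = 0.0009562). As a level, Mal ran from 330.9 to 547.8 CPM over the libraries in endothelial-like cells, with a median of 459.6 CPM. Its range over libraries there was 1.655-fold, where that of Mbp in the same cells, 40.58 to 304.1 CPM, was 7.493-fold. The pooled Mal level was 12.04% of that in oligodendrocyte-like cells for endothelial-like and 11.34% for mural-like cells, while each of the other 8 genes stood at 0.6199% to 3.313% of its oligodendrocyte level in these classes. The lowest of those percentages is that of Opalin in mural-like cells and the highest that of Mobp in endothelial-like cells.

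Cnp departed in astrocyte-like and OPC-like cells. In astrocyte-like cells, 237 of 1424 UMIs were of Cnp, 16.64% against 6.12% in oligodendrocyte-like cells, with a mean log2 ratio of 1.47 ± 0.52 (SD, n = 14) and a higher share in 14 of 14 libraries (exact permutation, adjusted p = 0.0006375). Its level there ran from 36.01 to 176.7 CPM, with a median of 66.37 CPM. Mobp was also higher in its share, 19.24% against 9.233%, by 0.89 ± 0.61 on the log2 scale and in 13 of 14 libraries (exact permutation, adjusted p = 0.0009562), and Ermn was lower, 13.41% against 24.66%, in all 14 libraries. In OPC-like cells, the dividing precursors of oligodendrocytes, Cnp made up 14.02% of the UMIs of the 9 genes, with a log2 ratio of 1.26 ± 0.72 (SD, n = 11) and a higher share in 11 of 11 libraries (exact permutation, adjusted p = 0.002416). Mbp was higher there too, at 33.71% against 20.33%, in 10 of 11 libraries (exact permutation, adjusted p = 0.005296). With doublets removed, the log2 ratio of Mbp, 0.61 with them, was 0.29 and no longer passed (exact permutation, adjusted p = 0.226). Ermn and Mal were lower in OPC-like cells, with log2 ratios of -1.26 ± 0.86 and -1.17 ± 1.11. Higher Cnp with lower Ermn and Mal was not particular to OPC-like cells. The log2 ratios of Ermn and Mal in astrocyte-like cells were -0.99 ± 0.60 and -0.88 ± 0.60. Ermn is made late in oligodendrocyte development and Cnp early, as background, and whether this bears on the shares was not tested.

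In microglia-like and neuron-like cells the tested mean log2 ratios all lay between -0.58 and 0.59. In microglia-like cells 2 of the 8 tested genes were higher and 3 lower. Mbp made up 25.24% of the UMIs, a log2 ratio of 0.32 ± 0.27 (SD, n = 14), higher in 14 of 14 libraries, and Ermn 18.92%, a log2 ratio of -0.51 ± 0.41, higher in 0 of 14. Mobp was also higher, at 0.46 ± 0.44, and Cldn11 and Mal were lower, at -0.58 ± 0.54 and -0.23 ± 0.30. In neuron-like cells 1 of the 7 tested genes differed: Mobp, with a log2 ratio of 0.59 ± 0.45 (SD, n = 13) and an adjusted p of 0.001912 (exact permutation). The barcodes with under 200 genes were tested for all 9 genes. Mbp was higher there, at 23.94% with a log2 ratio of 0.26 ± 0.20, and Mobp at 13.32% with 0.45 ± 0.40. Ermn and Cldn11 were lower, with log2 ratios of -0.36 ± 0.19 and -0.31 ± 0.35, and Mal, Mag, Mog, Opalin and Cnp passed no test, with mean log2 ratios between -0.12 and 0.15. The direction for Mbp, Mobp, Ermn and Cldn11 was therefore shared by the microglia-like cells and the barcodes with few genes, while Mal passed the test only in the former.

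Sparse classes held too few of these UMIs for the test across libraries, and their values are pooled. In fibroblast-like cells, 148 cells in all, 71 of the 161 UMIs of the 9 genes were of Cldn11, 44.1% (95% exact interval 36.29 to 52.13), against 6.352% in oligodendrocyte-like cells. These UMIs came from 9 of the 14 libraries, with 25 of them from THY-Tau22 male replicate 2 and 12 from THY-Tau22 male replicate 3. The Cldn11 level there was 266.0 CPM, 18.56% of that in oligodendrocyte-like cells. In ependymal-like cells 13 of 77 UMIs were of Cnp, 16.88% (95% exact interval 9.307 to 27.14), and in macrophage-like cells, with 340 UMIs of the 9 genes, the interval of each of the 9 shares held the oligodendrocyte share.

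The genes also differed in how closely each followed the others across the 10 named classes. The correlation of its log2(CPM + 10) with the mean of the other 8 was 0.984 for Mog, 0.983 for Ermn, 0.98 for Mbp, 0.979 for Mag, 0.976 for Opalin and 0.966 for Mobp. It was 0.87 for Cnp, 0.791 for Cldn11 and 0.762 for Mal. These are descriptions over 10 classes that share their libraries. By the same measure, the genes outside the 9 whose pattern was most like their mean, of 11685 genes, included Tmem125 (r = 0.994), 1700063D05Rik (0.988), A230009B12Rik (0.988) and Nipal4 (0.986). Nipal4 had been among the markers that named the class.

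THY-Tau22 and WT mice were compared on UMI counts summed per library in oligodendrocyte-like cells, with edgeR's quasi-likelihood test over 4186 genes and Benjamini-Hochberg adjustment over all of them. A call needed an adjusted p below 0.05 together with a change of at least 0.5, up or down, on the log2 scale. None of the 9 genes was called by edgeR or by DESeq2, whether the sexes were taken alone or together or their differences compared. Over all genes tested edgeR called 3 in males (0.0717%), 1 in females (0.0239%), 0 over the sexes together (0.0%) and 12 in the difference between the sexes (0.287%). At an unadjusted p under 0.05, 1 member was counted in males, Mal, 0 in females, 0 over the sexes together and 2, Mbp and Mal, in the difference between the sexes. Of all genes tested, 17.3%, 3.13%, 5.14% and 17.5% had an unadjusted p under 0.05 in these contrasts, so that 1 of 9 in males and 2 of 9 in the difference lay near the background.

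In males, Mbp and Mag lay higher and Mal lower in every THY-Tau22 library than in any WT library, without passing the test. The Mbp level was 5411, 4798 and 6792 CPM in the THY-Tau22 males against 3511, 3935 and 2851 CPM in the WT males. Every THY-Tau22 male lay above every WT male, and edgeR gave 0.50 ± 0.27 on the log2 scale (SE, adjusted p = 0.314). Mag, the adhesion protein facing the axon, was at 3820, 3437 and 3194 CPM in the THY-Tau22 males and at 1811, 2563 and 1827 CPM in the WT males. It too did not overlap, and edgeR gave 0.54 ± 0.30 (SE, log2 scale, adjusted p = 0.332). Mal went the other way, with 3363, 3351 and 2691 CPM in the THY-Tau22 males below 4119, 4521 and 3740 CPM in the WT males, and a log2 fold change by edgeR of -0.61 ± 0.25 (SE, unadjusted p = 0.0196, adjusted p = 0.2). The edgeR fold changes are on TMM-scaled libraries, so they differ from the ratios of CPM means.

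Cldn11, at 1240, 1327 and 2164 CPM in the THY-Tau22 males against 1203, 1219 and 816.7 CPM in the WT males, was the third gene without overlap in the higher direction, at 0.31 ± 0.27 (SE, log2 scale, edgeR adjusted p = 0.559). In all, 3 of the 9 genes were higher and 1 lower without overlap in males. Among all genes tested, 21.5% were higher and 7.14% lower in that way, so a difference of this kind was common in males at large. The remaining 5 genes overlapped: their log2 fold changes in males were 0.09 ± 0.24 for Mobp, 0.23 ± 0.26 for Mog, 0.40 ± 0.28 for Opalin, 0.25 ± 0.28 for Cnp and -0.08 ± 0.26 for Ermn. The median over the 9 genes was 0.25, beside 0.00 over all genes tested.

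**Figure D3:**
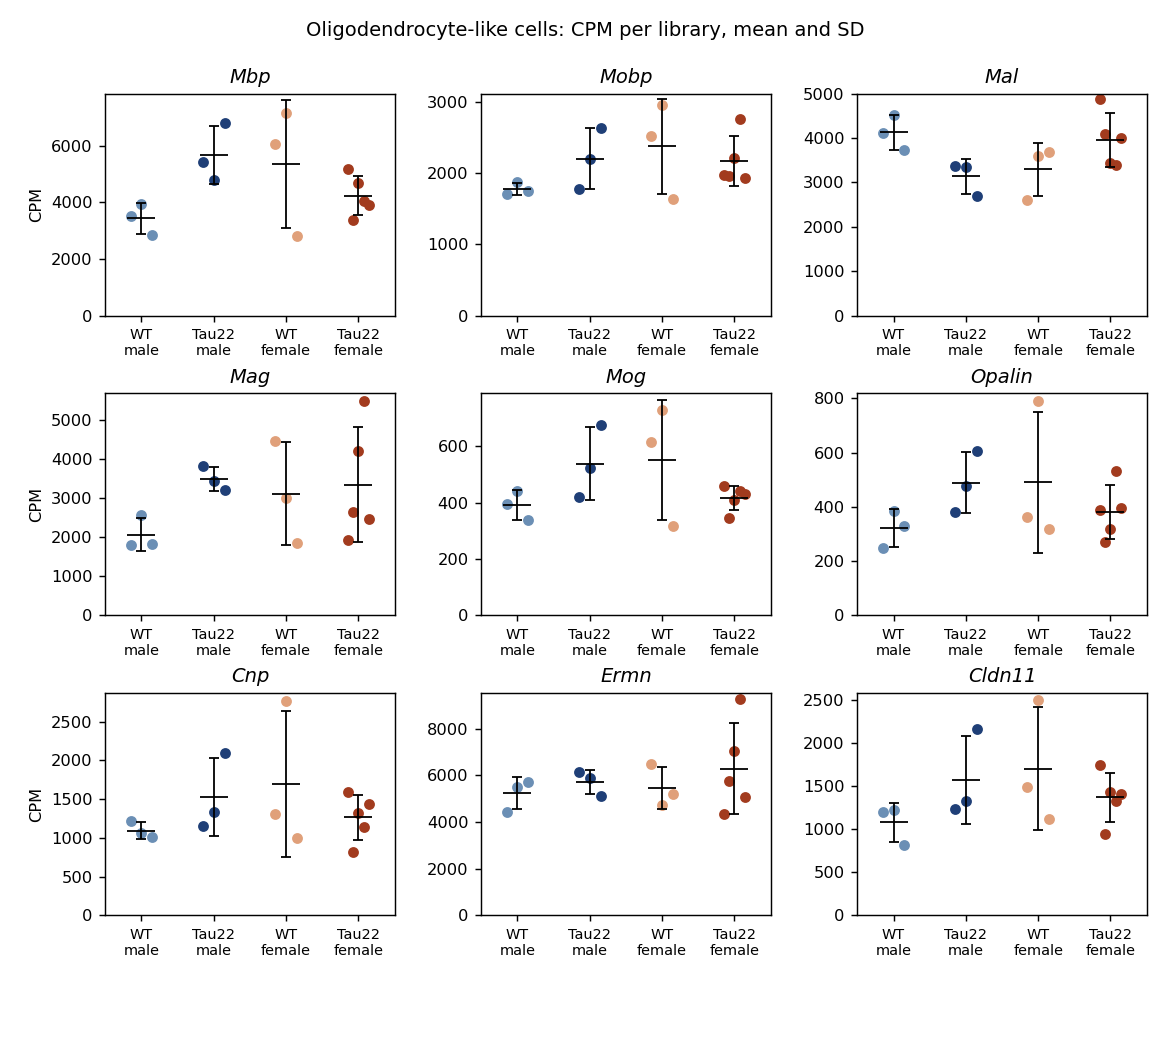
Level of each of the 9 genes in oligodendrocyte-like cells by group, in CPM, with a point for each library and a black bar for the mean and 1 SD (Tau22 stands for THY-Tau22). In males the THY-Tau22 libraries lie above the WT libraries for Mbp, Mag and Cldn11 and below them for Mal, and in females the groups overlap for every gene.

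In females the groups overlapped for all 9 genes. Among all genes tested, 1.0% were higher and 0.812% lower without overlap. Mbp was at 5160, 3387, 4667, 4038 and 3895 CPM in THY-Tau22 females and at 6066, 7139 and 2805 CPM in WT females, at -0.26 ± 0.24 (SE, log2 scale, edgeR adjusted p = 0.995). The WT females held both the highest and the lowest Mbp level of all 14 libraries. Mal was at 4888, 4081, 3437, 3388 and 4006 CPM in THY-Tau22 females and at 2603, 3592 and 3687 CPM in WT females, with a log2 fold change of 0.30 ± 0.23. Mag was at 1917, 2631, 4194, 5482 and 2471 CPM in THY-Tau22 females and at 4466, 3013 and 1849 CPM in WT females, with a log2 fold change of 0.14 ± 0.27. Of the other 6 genes, Mobp, Mog, Opalin, Cnp and Cldn11 had log2 fold changes between -0.34 and -0.08, and Ermn one of 0.22 ± 0.23 (SE). The median over the 9 genes was -0.25 in females, beside -0.02 over all genes tested.

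The difference between the sexes, that is, the fold change of males less that of females on the log2 scale, was 0.76 ± 0.35 for Mbp (SE, edgeR unadjusted p = 0.0381, adjusted p = 0.261) and -0.91 ± 0.34 for Mal (unadjusted p = 0.0105, adjusted p = 0.179), and its median over the 9 genes was 0.56, beside -0.01 over all genes. Neither was called with all 14 libraries. Without WT female replicate 3 both were called, Mbp at 1.01 ± 0.32 (edgeR adjusted p = 0.0324) and Mal at -1.11 ± 0.33 (adjusted p = 0.0238), in a fit that called 11.5% of all genes tested. Over all the settings that could give it, the adjusted p ran from 0.0324 to 0.754 for Mbp and from 0.0238 to 0.441 for Mal. Without this library and THY-Tau22 female replicate 5, the other library whose title carries MB22, Mal was called, at -1.10 ± 0.35 (edgeR adjusted p = 0.0408), and Mbp was not, with 7.98% of all genes called.

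Mbp and Mal were paired after their values were seen, and their ratio moved with other properties of the oligodendrocyte-like cells. The ratio of Mbp to Mal UMIs was 0.8524, 0.8704 and 0.7625 in the WT males, below the 1.609, 1.432 and 2.524 of the THY-Tau22 males. In WT females it was 2.33, 1.987 and 0.7607, and in THY-Tau22 females 1.056, 0.8299, 1.358, 1.192 and 0.9721. WT female replicate 3 thus had the lowest ratio of all libraries and the other WT females were among the highest. Across the 14 libraries the log2 ratio rose with the share of mitochondrial mRNA among the UMIs of these cells, with Pearson's r = 0.916 and Spearman's rho = 0.943. It was 0.977 within the 6 males, 0.857 within the 8 females and 0.864 without the 2 libraries farthest from the median share.

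**Figure D4:**
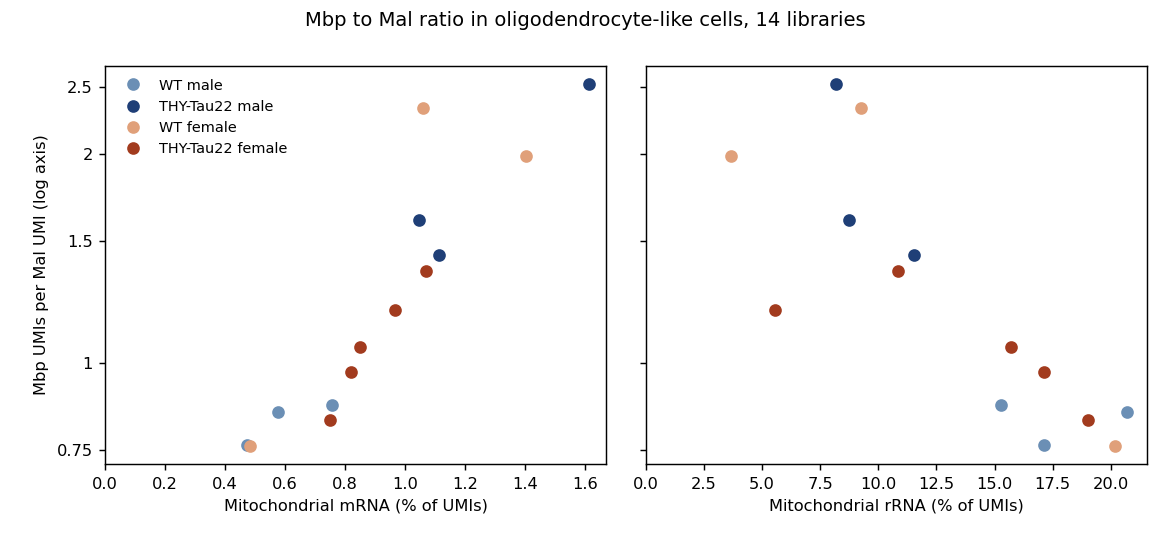
Ratio of Mbp to Mal UMIs in oligodendrocyte-like cells on a log axis against mitochondrial mRNA (left) and mitochondrial ribosomal RNA (right), each in percent of the UMIs of the same cells, with a point for each of the 14 libraries coloured by group. The ratio rises with the first (r = 0.916) and falls with the second (r = -0.825), and WT female replicate 3, at a ratio of 0.7607, lies beside the WT males.

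The ratio also rose with ribosomal protein mRNA (r = 0.835) and with the share of oligodendrocyte-like cells in the cluster led by Gstp1 (r = 0.79), and fell with mitochondrial ribosomal RNA (r = -0.825). Its r with the median UMIs per cell was 0.32. These 5 relations were computed on a pair chosen from the data, so no p is given. Mitochondrial mRNA made up 0.4728 to 0.7568% of the UMIs in the WT males, below the 1.045 to 1.613% of the THY-Tau22 males, and mitochondrial ribosomal RNA 15.29 to 20.69%, above their 8.177 to 11.52%. The Gstp1-led cluster held 15.25 to 20.17% of the oligodendrocyte-like cells in the WT males and 34.53 to 58.64% in the THY-Tau22 ones. In WT female replicate 3 these values were 0.4843%, 20.19% and 15.83%, within or close to the ranges of the WT males. The part of these properties in the differences of Mbp and Mal was not tested.

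Summed over the 9 genes, the level in oligodendrocyte-like cells was 24330 ± 1430 CPM in THY-Tau22 against 19510 ± 1733 CPM in WT males (SD over 3 libraries each). The male libraries did not overlap, at 23690, 23330 and 25970 CPM against 18650, 21500 and 18380 CPM. In females it was 23410 ± 3325 CPM in THY-Tau22 (5 libraries) against 24020 ± 5394 CPM in WT (3 libraries), at 22450, 20180, 25020, 28380 and 21040 CPM against 25890, 28230 and 17940 CPM. Since the 9 genes were chosen as a list with results of these data known, no p is given for their sum. The share of oligodendrocyte-like cells among kept cells passed no test between the groups: it was 21.02 ± 6.55% in THY-Tau22 against 17.02 ± 2.05% in WT males (exact two-sided permutation p = 0.5, adjusted over 6 share comparisons 0.75), and 18.28 ± 4.05% against 18.45 ± 4.16% in females (exact permutation p = 1.0, adjusted 1.0). With 3 against 3 males the smallest p this test can give is 0.1, and with 5 against 3 females it is 0.0179.

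**Figure D5:**
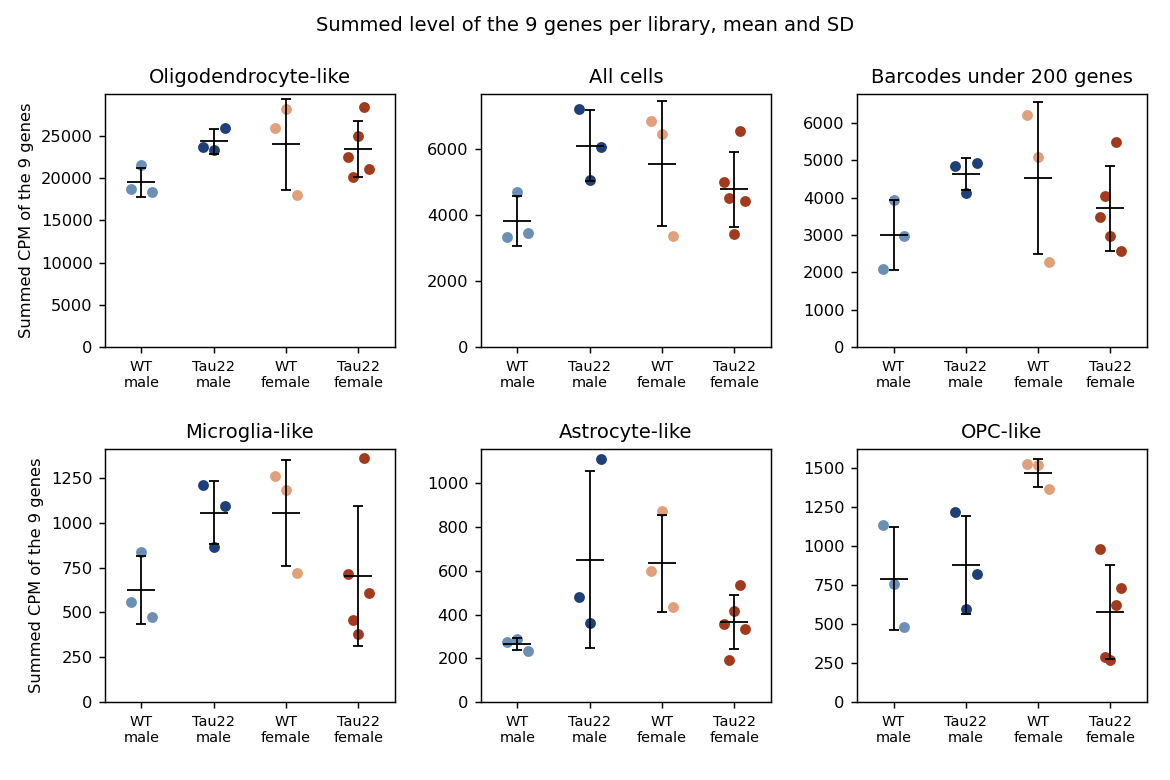
Summed level of the 9 genes by group, in CPM, for oligodendrocyte-like cells, all kept cells, barcodes with under 200 genes and 3 other classes, with a point for each library and a black bar for the mean and 1 SD (Tau22 stands for THY-Tau22). In the oligodendrocyte-like cells of males, the 3 THY-Tau22 libraries lie between 23330 and 25970 CPM and the 3 WT libraries between 18380 and 21500 CPM.

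Over all kept cells, where more oligodendrocytes and more of these transcripts in each of them cannot be told apart, none of the 9 genes was called in any of the 4 contrasts, with 11643 genes tested and 0.0% of them called. At an unadjusted p under 0.05, 5 members were counted in males, 0 in females, 0 over the sexes together and 6 in the difference between the sexes, beside 15.4%, 1.74%, 4.22% and 12.7% of all genes. DESeq2 called none of the 9. The Mbp level over all cells was 1674, 1024 and 1621 CPM in the THY-Tau22 males against 633.2, 870.2 and 542.0 CPM in the WT males, a difference edgeR put at 0.90 ± 0.30 on the log2 scale (SE, adjusted p = 0.234). In females it was 1138, 747.6, 670.8, 939.2 and 840.2 CPM against 1603, 1624 and 586.4 CPM. In males 7 of the 9 genes lay higher without overlap, all but Ermn and Mal, and 0 lower, beside 22.4% higher and 6.68% lower of all genes tested. In females 0 of the 9 did so in either direction, beside 0.679% and 0.507%. The difference between the sexes for Mbp was 1.39 ± 0.40 (SE, edgeR adjusted p = 0.291), and for Mal it was -0.45 ± 0.36. Without WT female replicate 3, edgeR called 6 of the 9 genes for the difference between the sexes over all cells: Cldn11, Cnp, Mbp, Mobp, Mog and Opalin, with log2 values from 1.07 for Mobp to 1.68 for Mbp, in a fit that called 9.56% of all genes tested. Fitted on males alone, Mag and Mbp were called over all cells, at 0.95 ± 0.25 and 0.90 ± 0.23 (edgeR adjusted p = 0.0312 and 0.0314), in a fit that called 6.08% of all genes tested.

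The 9 genes were also compared between genotypes in 5 classes outside the oligodendrocytes, where 26 member and class pairs passed the filter on low counts: 7 genes in microglia-like, 6 in astrocyte-like, 5 in endothelial-like, 6 in neuron-like and 2 in OPC-like cells. None of the 26 was called in males, in females or in the difference between the sexes by edgeR. At an unadjusted p under 0.05, 10 pairs were counted in males, 7 in females and 16 in the difference between the sexes. Of the 10 in males, 2 of 7 tested were microglia-like, 4 of 6 astrocyte-like, 3 of 5 endothelial-like, 1 of 6 neuron-like and 0 of 2 OPC-like, beside 17.5%, 17.4%, 16.3%, 7.0% and 9.53% of all genes in these classes. Of the 7 in females the counts were 2, 2, 2, 0 and 1, beside 2.66%, 2.93%, 2.33%, 3.0% and 3.63%. Of the 16 in the difference they were 5, 5, 4, 1 and 1, beside 13.9%, 17.7%, 13.6%, 5.43% and 7.43%. DESeq2 called 1 pair in the difference, Mbp in microglia-like cells, beside 0.418% of all genes there. Over all genes tested in microglia-like cells edgeR called 0.646% in males, 0.0% in females and 0.0% in the difference between the sexes. In OPC-like cells it called 0.0808% in males, and in the other classes 0.0%.

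The values in these classes shared a direction. In males 24 of the 26 pairs had a log2 fold change above 0, and in females 4 of 26 did. Of all genes tested in these classes, 49.2% to 53.3% lay above 0 in males and 48.5% to 52.3% in females. The median over the members tested was 0.84 in microglia-like, 1.16 in astrocyte-like and 0.87 in endothelial-like cells of males, beside -0.01, 0.00 and 0.00 over all genes tested there. All these contrasts use the same mice, so the classes are not independent of one another. In microglia-like cells the Mbp level was 346.3, 183.3 and 352.8 CPM in the THY-Tau22 males against 143.4, 163.4 and 130.1 CPM in the WT males, or 0.90 ± 0.30 on the log2 scale (SE, edgeR adjusted p = 0.143). In females it was 196.0, 82.21, 136.0, 199.4 and 149.8 CPM against 359.9, 332.8 and 162.9 CPM, a log2 fold change of -0.81 ± 0.27. Barcodes with under 200 genes had Mbp at 1346, 862.3 and 1611 CPM in THY-Tau22 males against 540.0, 854.2 and 494.3 CPM in WT males. Their female values were 851.5, 735.4, 718.9, 836.5 and 618.0 CPM against 1583, 1611 and 624.3 CPM. Whether Mbp in the classes outside the oligodendrocytes came from within these cells or from RNA outside them was not tested. In astrocyte-like cells the Mbp log2 fold change was 1.25 ± 0.41 in males and -0.89 ± 0.35 in females, and in endothelial-like cells 1.23 ± 0.42 and -0.96 ± 0.36. The difference between the sexes for Mbp was 1.71 ± 0.40 in microglia-like, 2.14 ± 0.54 in astrocyte-like and 2.20 ± 0.55 in endothelial-like cells (SE, edgeR adjusted p = 0.111, 0.121 and 0.109). Mal in endothelial-like cells did not follow this direction: its log2 fold change was -0.60 ± 0.24 in males (SE, edgeR adjusted p = 0.242) and 0.18 ± 0.21 in females. Its level there was 351.6, 330.9 and 383.7 CPM in the THY-Tau22 males and 494.8, 474.4 and 468.1 CPM in the WT males. How many of all genes separate the male groups was not counted in endothelial-like cells. Among the genes of oligodendrocyte-like cells 21.5% did so higher and 7.14% lower. The order of the Mal libraries is therefore not read as a result about Mal. In males 16.3% of the genes tested there had an unadjusted edgeR p under 0.05. Without WT female replicate 3, edgeR called 9 of the pairs for the difference between the sexes, 6 of them astrocyte-like, 2 endothelial-like and 1, Mbp, microglia-like, in fits that called 14.6%, 8.59% and 7.78% of all genes. When doublets were removed it called Mbp in microglia-like cells in males, at 1.48 ± 0.35 (adjusted p = 0.0416), beside 0.914% of all genes.

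In OPC-like cells Mbp stood in THY-Tau22 females at 299.3, 76.91, 67.33, 118.6 and 282.0 CPM against 331.6, 577.5 and 534.2 CPM in WT females. These values rested on 26, 4, 3, 4 and 30 Mbp UMIs in THY-Tau22 females and on 10, 11 and 59 in WT females. How many of all genes in this class separate the female groups was not counted, so the order of the libraries is not read as a result. By edgeR the Mbp difference in females was -1.33 ± 0.38 on the log2 scale (SE, unadjusted p = 0.00104, adjusted p = 0.403), which is no call. Of all genes tested in these cells, 3.63% had an unadjusted edgeR p under 0.05 in females. The Mbp level in males was 348.2, 239.7 and 364.8 CPM against 402.7, 158.0 and 230.1 CPM. The sum of the 9 genes in these cells was 578.4 ± 302.3 CPM in THY-Tau22 against 1472 ± 90.5 CPM in WT females (SD over 5 and 3 libraries), and the male means were 879.6 and 792.1 CPM. With doublets removed, the difference of the sum in females was -531.8 CPM, where it was -893.2 CPM with them. The class held 1110 cells in all and 706 UMIs of the 9 genes, so counting error weighs on each of these values.

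A library with a larger share of UMIs from oligodendrocyte-like cells held more of the 9 genes in its barcodes with few genes. Across the 14 libraries the correlation was r = 0.685 (rho = 0.71), 0.684 within the 6 males and 0.732 within the 8 females, and 0.797 without the 2 libraries farthest from the median share. For microglia-like cells it was r = 0.655 (rho = 0.591), and 0.517 without the 2 farthest libraries. When doublets were removed the microglia-like value was 0.223, with the 9 genes kept among the clustering features it was 0.368, and with classes set by marker UMIs alone it was 0.404. For astrocyte-like, endothelial-like, neuron-like and OPC-like cells r was 0.103, 0.163, 0.19 and 0.349. The 6 relations are descriptions and no p is given, since they rest on the sum over the chosen genes.

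Among 56 other genes of the myelin program, listed by role, 52 could be tested in oligodendrocyte-like cells and none was called in any contrast by edgeR, while DESeq2 called 1, Cd9, in males, beside 0.43% of all genes, and 0 in the other contrasts. At an unadjusted p under 0.05, 11 of the 52 were higher and 0 lower in males, beside 9.08% higher and 8.19% lower of all genes tested, and 0 in either direction in females, beside 1.24% and 1.89%. Over both sexes 4 were higher and 0 lower, beside 2.6% and 2.53%, and in the difference between the sexes 11 were above 0 and 1 below, beside 10.3% and 7.17%. By role, the 11 in males were 6 of 17 mature oligodendrocyte genes, 3 of 9 tetraspan and membrane protein genes, 1 of 8 junction genes and 1 of 7 tested transcription factor genes, with 0 of 8 myelin lipid enzymes and 0 of 3 tested premyelinating genes. The median log2 fold change of the 52 was 0.25 in males and -0.07 in females, beside 0.00 and -0.02 over all genes tested. All of the 22 markers that named this class, except Efnb3, were in the list of 56, and only the 9 genes were kept out of the clustering. The cells were thus chosen in part through genes compared here, and how far this moved the counts was not tested.

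The genes with the smallest p in males were Cd9, a tetraspanin of the oligodendrocyte surface, at 1.15 ± 0.30 (SE, edgeR adjusted p = 0.0911), and Gjb1, a connexin of myelin, at 1.00 ± 0.29 (adjusted p = 0.0976). In females they were Fyn, a kinase that acts as myelination starts, at -0.69 ± 0.40 (SE, edgeR adjusted p = 0.995), and Gal3st1, which makes sulfatide, at -0.50 ± 0.39 (edgeR adjusted p = 0.995). Over both sexes Cd9 was at 0.48 ± 0.20 and Gjb1 at 0.46 ± 0.19 (SE, edgeR adjusted p = 0.901 for each). The difference between the sexes was 1.35 ± 0.39 for Cd9 (SE, edgeR adjusted p = 0.0897) and 1.44 ± 0.47 for Cryab, a small heat shock protein of mature oligodendrocytes (adjusted p = 0.135). Premyelinating genes were thinly measured, as Gpr17, Neu4 and Tmem2 did not pass the filter.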

How the data were processed

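Cortex of 17-month-old THY-Tau22 and wild-type mice was dissociated, and Drop-seq libraries were sequenced from the 3′ end of polyadenylated RNA, 1 library per mouse. Per the labels, the authors deposited 1 digital expression table per library, with whole-number UMI counts per gene and barcode, not normalised and limited to 3000 barcodes, on mm10 per the submitters' processing notes. The strand setting of the counting was not given in the sources used here. Barcodes with 200 to 7000 detected genes were kept. After clustering with scanpy 1.11.5 (2500 variable genes without the 9 genes, 19 components, 20 neighbours, resolution 0.5), 16 of 18 clusters were named from marker lists and 2, led by Kif5a and by Top2a, were not. Doublet calls marked 1603 cells (5.62%), which were kept and removed as an alternative.

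UMI counts were summed per library and class. Genotype was tested with edgeR 4.0.16 (TMM scaling, quasi-likelihood test, 4 groups in 1 model, low-count filter, Benjamini-Hochberg adjustment over all genes tested, R 4.3.3), with DESeq2 1.42.0 as an alternative. Libraries with fewer than 10 cells of a class were left out of its fit. P-values of the genotype tests weigh a difference against the spread between mice, with 3 to 5 per group. Those of the comparison of proportions rest on differences within a library, over 11 to 14 libraries of all 4 groups. In the comparison of proportions, a gene needed 50 UMIs in a class and a library 20 UMIs of the 9 genes, and 0.5 was added to counts. The steps were tested on simulated data. Other values were computed in Python 3.11.15 with numpy 2.4.6, scipy 1.17.1 and pandas 2.3.3.

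All 9 genes are named throughout. Of the 56 other myelin genes, those called or with the 2 smallest p of a contrast are named, and the 5 genes most like the members by correlation over classes are named, except 1 that is not reported here. The members, lists and tests were chosen with earlier results of these data known. Alternatives covered the normalisation, the low-count filter, the assignment of cells to classes, the doublets, the treatment of the pair of tables that share barcodes, fits of 1 sex and each library left out in turn.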

Additional observations from a re-analysis of the deposited data

Results flagged for a closer look

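The share of UMIs in oligodendrocyte-like cells was 11.81% in THY-Tau22 female replicate 3, far below the other 4 THY-Tau22 females, at 18.36 to 20.61%. It was the only library found to stand apart in this way in 20 groups of values, where chance alone gives about 1 in 20.

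The difference of THY-Tau22 from WT in the summed level of the 9 genes was compared between the sexes, and 3 classes are listed here. Males less females, it was 782.8 CPM in microglia-like, 655.7 CPM in astrocyte-like and 980.7 CPM in OPC-like cells. They were picked out by relabelling genotype within each sex, before adjustment. After adjustment over the 27 values of this kind none of the 3 passed, and no p is given, since the 9 genes were chosen with results of these data known. The males had differences of 432.3, 386.0 and 87.52 CPM and the females of -350.6, -269.7 and -893.2 CPM. The astrocyte-like value was 424.7 CPM without THY-Tau22 male replicate 3, whose summed level of 1113 CPM was the highest of the 14 libraries in that class.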

How the results depend on the processing

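The higher shares of Mal in endothelial-like and mural-like and of Cnp in astrocyte-like and OPC-like cells kept their direction and their side of the threshold under every alternative run, and no member was called in females or over the sexes together under any. The male differences of the summed level in oligodendrocyte-like cells (4005 to 5821 CPM with each library left out) and in all cells (1725 to 2805 CPM) kept their direction. The cause of the changes below was not tested. No paired analysis was possible because the replicate numbers follow accession order and pair no mice across groups.

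Counts of members called moved from 0, in fits that called 0.0268% to 14.6% of all genes tested. The lowest share was that of endothelial-like cells without THY-Tau22 male replicate 2, where Mbp was the only gene called of 3737 tested. Without WT female replicate 3 and THY-Tau22 female replicate 5, the libraries with MB22 in their titles, edgeR called 1 member in oligodendrocyte-like cells, 4 in all cells and 8 pairs in other classes for the difference between the sexes, and 1 pair in males. Fits of 1 sex called 2 members in all cells and 4 pairs in males. With no filter on low counts the difference between the sexes had 1 call in all cells and 3 pairs, and males 1 call in all cells. It had 1 pair by DESeq2, 1 with the shared library kept as WT male replicate 3, and 1 with doublets removed, as had males. With each library left out, these counts for the difference between the sexes ran from 0 to 2 in oligodendrocyte-like cells, from 0 to 6 in all cells and from 0 to 9 pairs, highest each time without WT female replicate 3, and from 0 to 2 pairs in males.

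For the summed level, values in CPM are THY-Tau22 less WT. Without both MB22 libraries the difference between the sexes was 7878 in oligodendrocyte-like and 4051 in all cells, and the OPC-like difference in females was -984.1. With the shared library kept as WT male replicate 3 the all-cell value was 2966. Kept as THY-Tau22 male replicate 4, it gave 612.1 for microglia-like cells between the sexes and -20.99, a change of sign, for OPC-like cells in males, and with all 16 tables the microglia-like value was 660.2. With classes set by marker UMIs alone, the differences were 386.8 (microglia-like, between the sexes), -209.8 (endothelial-like, females), 46.52 (neuron-like, females, a change of sign), -720.3 (OPC-like, females) and 728.4 (OPC-like, between the sexes), and r for OPC-like cells against the oligodendrocyte-like share of UMIs was -0.08128. With doublets removed, they were 1944 (neuron-like, between the sexes), -531.8 (OPC-like, females) and 673.6 (OPC-like, between the sexes). The microglia-like r fell to 0.2225 with doublets removed, to 0.3677 with the members among the clustering features and to 0.4041 with marker UMIs.

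With each library left out, oligodendrocyte-like differences ran from -3647 to 1497 in females and from 3327 to 8471 between the sexes. Between the sexes they ran from 2412 to 4144 in all cells, from 679.2 to 950.9 in microglia-like, from 135.2 to 491.6 in endothelial-like, from 432.0 to 2280 in neuron-like and from 811.2 to 1153 in OPC-like cells. They ran from -40.07 to 316.3 in endothelial-like and from -81.99 to 260.0 in OPC-like cells of males, and from -1635 to 212.7 in neuron-like and from -993.2 to -815.9 in OPC-like cells of females. In females the share of oligodendrocyte-like cells differed by -1.797 to 2.174 and their share of UMIs by -3.066 to 0.8264 percentage points. In oligodendrocyte-like cells, log2 fold changes that passed 0 were those of Mobp (-0.008511 to 0.2153) and Ermn (-0.1728 to 0.0346) in males and of Mobp (-0.229 to 0.04324), Mag (-0.0837 to 0.5089), Opalin (-0.4714 to 0.1333), Cnp (-0.5532 to 0.1195) and Cldn11 (-0.4149 to 0.0535) in females. With no filter, Mobp in females was at 0.01047.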

Other observations

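Cells of the 2 unnamed clusters, 983 in the 14 libraries, held 3971 CPM of the 9 genes, close to the 4074 CPM of barcodes with under 200 genes. The larger of these clusters was led by Kif5a and mitochondrial tRNA genes, and 44.37% of its cells came from THY-Tau22 male replicate 3. Relative to oligodendrocyte-like cells, Mobp stood at 26.17% of its level in the unnamed cells and at 26.05% in the barcodes with few genes, and Mbp at 21.87% and 21.25%. Ermn stood at 14.69% and 14.95%. Macrophage-like cells, 236 in all, held 1752 CPM of the 9 genes, between the level of the unnamed cells and that of the larger named classes.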
